A study of Mus musculus with 12 samples.

Results

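The 10 genes described here are 4 fibroblast growth factor (FGF) ligands, Fgf3, Fgf8, Fgf15 and Fgf17, and 6 genes that FGF signalling is known to switch on: Spry1, Spry2, Spry4, Spred1, Etv4 and Etv5. They were chosen by name and found by gene identifier among the 53647 gene identifiers of the deposited table, and all 10 were in the table. RNA was sequenced from whole mouse embryos at embryonic day 9.5. The mothers were exposed to X-rays for a total of 30 Gy at 5 Gy per minute, and embryos were collected 1 h or 3 h later; untreated embryos of the same stage were the controls. Embryos were labelled p53 +/+ (wild type) or p53 -/- (knockout), which gives 6 groups of 2 libraries. The labels give neither a strain nor the kind of p53 allele, and do not say whether a library came from 1 embryo or from a pool, so p-values measure only the spread between these libraries.

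The genotype labels went against the p53 readout. Trp53, which encodes p53, was at 265 and 79.1 TPM in the untreated libraries labelled knockout, and stood at 250.1 and 209.5 TPM after 1 h and 242 and 220 TPM after 3 h. In the libraries labelled wild type it was at 114 and 211 TPM untreated, 114 and 66.8 TPM at 1 h, and 93.7 and 68.0 TPM at 3 h. Cdkn1a, a cell cycle inhibitor that p53 activates, was at 5.38 to 6.88 TPM in untreated libraries labelled knockout and at 499 and 444 TPM at 3 h. At 3 h it was at 6.96 and 6.18 TPM in the libraries labelled wild type. Mdm2, which encodes the ubiquitin ligase that restrains p53, was at 294 and 306 TPM at 3 h under the knockout label and at 33.5 and 33.6 TPM under the wild-type label. Groups are therefore called by their label throughout, as "labelled knockout" or "labelled wild type". The untreated libraries numbered 2 stood apart from the other libraries of their label in Trp53 (79.1 TPM labelled knockout, 211 TPM labelled wild type), so the members' calls that use untreated libraries are also given without these 2.

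FGF ligands are secreted proteins that bind FGF receptors together with heparan sulfate and start the RAS-ERK kinase relay. In the early embryo they are made by small signalling centres: the midbrain-hindbrain boundary, the anterior neural ridge, the pharyngeal pouches, the tail bud and the limb ectodermal ridge. ERK signalling then induces the ETS transcription factors Etv4 and Etv5, which carry the signal to target genes, and the inhibitors of the Sprouty and Spred families, which damp the same relay. Transcripts of the induced genes are commonly used as a readout of FGF activity.

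Promoter sequences are shown for 4 of the members with a window: the ligand Fgf3, the ETS gene Etv5, and the inhibitors Spry1 and Spry2. For Fgf15 and Fgf17 no window was searched. The windows come from RefSeq, build GRCm38.p6, and run from 250 bases before to 50 after the annotated start, written in the direction of transcription. They were searched on both strands for GGAAG, the core that ETS factors bind, and for its longer form CCGGAAG. Capitals mark GGAAG or, where the core lies on the opposite strand, CTTCC.
Fgf3, chr7:144838362-144838661, plus strand: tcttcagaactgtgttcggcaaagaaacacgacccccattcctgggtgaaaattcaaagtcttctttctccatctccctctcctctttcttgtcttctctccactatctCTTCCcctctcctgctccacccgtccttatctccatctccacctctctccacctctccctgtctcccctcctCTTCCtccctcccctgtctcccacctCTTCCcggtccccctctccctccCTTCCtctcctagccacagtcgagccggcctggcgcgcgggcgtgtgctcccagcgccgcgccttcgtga
Etv5, chr16:22439521-22439820, minus strand: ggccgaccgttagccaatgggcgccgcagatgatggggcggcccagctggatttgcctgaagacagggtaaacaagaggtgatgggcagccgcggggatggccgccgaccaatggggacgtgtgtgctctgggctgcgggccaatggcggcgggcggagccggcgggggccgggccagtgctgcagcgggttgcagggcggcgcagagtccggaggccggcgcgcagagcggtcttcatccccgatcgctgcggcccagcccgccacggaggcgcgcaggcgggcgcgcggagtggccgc
Spry1, chr3:37639697-37639996, plus strand: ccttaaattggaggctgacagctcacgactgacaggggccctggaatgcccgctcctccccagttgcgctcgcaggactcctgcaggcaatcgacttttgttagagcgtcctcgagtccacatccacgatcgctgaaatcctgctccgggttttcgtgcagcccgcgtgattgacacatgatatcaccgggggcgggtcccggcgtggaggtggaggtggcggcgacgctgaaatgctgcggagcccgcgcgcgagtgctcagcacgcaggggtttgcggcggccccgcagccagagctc
Spry2, chr14:105896770-105897069, minus strand: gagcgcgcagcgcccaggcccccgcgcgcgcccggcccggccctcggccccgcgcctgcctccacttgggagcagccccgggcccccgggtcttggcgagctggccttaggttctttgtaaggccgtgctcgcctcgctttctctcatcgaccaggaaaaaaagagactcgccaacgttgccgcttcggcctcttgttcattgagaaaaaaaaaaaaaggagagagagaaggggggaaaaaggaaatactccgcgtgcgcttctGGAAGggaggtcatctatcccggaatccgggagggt

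The Fgf3 window held 4 cores, all on the opposite strand, starting 141, 69, 43 and 20 bases before the start site. The Spry2 window held 1 core, 15 bases after the start. The Spry1 window and the Etv5 window shown held none. A second Etv5 window, at another annotated start, held 4, and the Spred1 window held 2. Member windows were taken by symbol, and any on chr18 were left out. This gave windows for 5 of the 10 members, and the longer core was in none of them. For Fgf8, Fgf15, Fgf17, Spry4 and Etv4 no window was searched. Over all 32851 windows of this length, 71.4% held at least 1 GGAAG core, 6.04% held 4 or more, and 8.86% held CCGGAAG. A match in these letters is a description and not a measured binding site.

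Values are TPM, the usual relative unit of transcript number, which correct for transcript length, so levels can be set side by side between genes. All 10 members passed the filter of at least 1 TPM in at least 2 libraries, as did 15535 genes in all. Over the 12 libraries Spred1 had the highest median level, 29.0 TPM, followed by Etv5 at 24.1 TPM and Fgf8 at 19.4 TPM. Etv4, Fgf15, Spry2 and Spry1 came next with medians of 15.4, 14.5, 14.4 and 13.0 TPM, and their ranges over libraries overlapped. Fgf17 (4.61 TPM), Spry4 (3.29 TPM) and Fgf3 (1.52 TPM) were lowest. Because Fgf3 is near 1 TPM, a fold change on the log2(TPM + 1) scale used below understates its change.

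**Figure D1:**
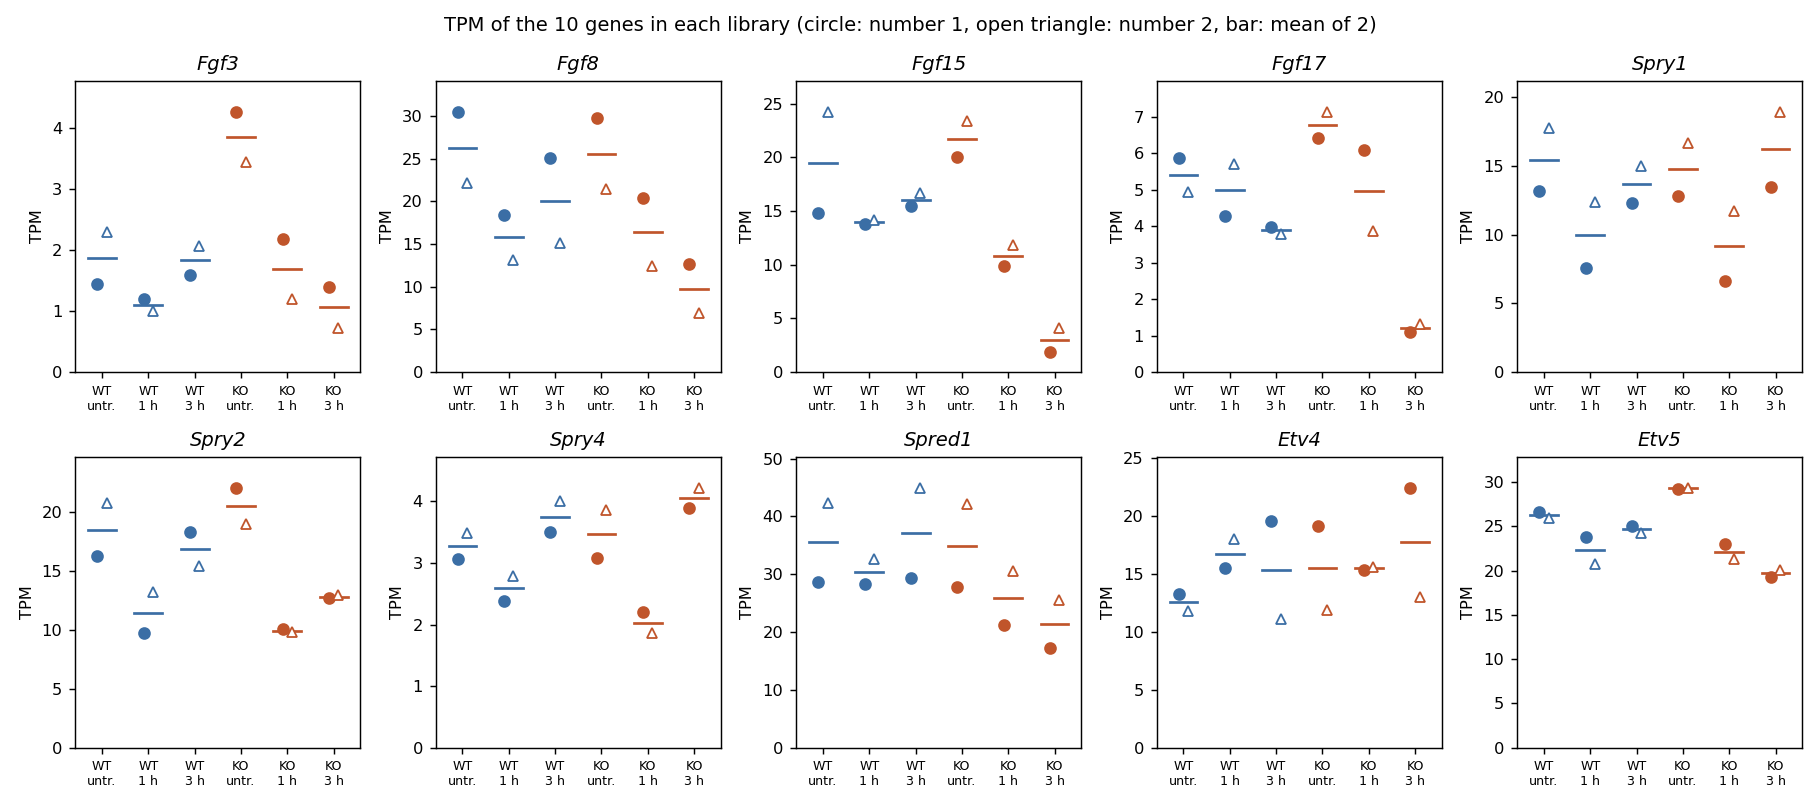
TPM of each gene (vertical axis, from 0) in each of the 12 libraries, grouped by label and time on the horizontal axis; filled circles are libraries numbered 1, open triangles libraries numbered 2, and bars the mean of 2. Fgf15 was at 1.88 and 4.13 TPM and Fgf17 at 1.09 and 1.31 TPM in the 3 h libraries labelled knockout, below all their other libraries.

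In the libraries labelled knockout, 3 of the 4 ligands were called lower at 3 h than untreated: Fgf15, Fgf17 and Fgf3. Fgf8 differed by -1.34, against -1.25 for Fgf3, and missed the threshold (limma adjusted p = 0.0544). Of the 6 induced genes Etv5 was called lower (-0.55). Spred1 (-0.68) and Spry2 (-0.64) were also lower than untreated, without passing the test. Spry1, Spry4 and Etv4 stood at or above their untreated level, also without passing it. With 4 of the 10 members called, all lower, the share set against the background was 5.87% of all genes called lower and 12.1% called in either direction. Calls are at an adjusted p under 0.05 in limma. The median member changed by -0.66 on the log2 scale and the median gene by -0.12. In whole embryos, fewer cells that make a transcript and less transcript per cell cannot be told apart.

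Fgf15 (ENSMUSG00000031073) encodes a ligand made in the neural tube and the pharyngeal arches. It was at 20.0 and 23.4 TPM in the untreated libraries labelled knockout (21.7 ± 2.38, SD, n = 2), with 1 h values of 9.85 and 11.8 TPM and 3 h values of 1.88 and 4.13 TPM (3.01 ± 1.59, SD, n = 2). Under the wild-type label it was at 14.8 and 24.2 TPM untreated, 13.8 and 14.2 TPM at 1 h, and 15.4 and 16.7 TPM at 3 h. The 3 time groups labelled knockout did not overlap and were in the order untreated, 1 h, 3 h, whereas the groups labelled wild type at 3 h and untreated overlapped. From untreated to 3 h Fgf15 fell by 2.56 on the log2 scale (SE 0.301, limma adjusted p = 0.00102), to 0.0938 of the untreated TPM among libraries numbered 1 and 0.176 among those numbered 2. It was called after leaving out each of the 12 libraries in turn, with adjusted p up to 0.0119, and without both untreated libraries numbered 2 (-2.45, adjusted p = 0.0166).

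Fgf17 (ENSMUSG00000022101), a ligand of the midbrain-hindbrain boundary closely related to Fgf8, was at 6.41 and 7.13 TPM untreated under the knockout label (6.77 ± 0.509, SD, n = 2). Its 1 h values were 6.08 and 3.87 TPM, and its 3 h values 1.09 and 1.31 TPM (1.2 ± 0.156, SD, n = 2). The libraries labelled wild type were at 5.88 and 4.95 TPM untreated, 4.27 and 5.70 TPM at 1 h, and 3.99 and 3.79 TPM at 3 h. The 3 h libraries labelled knockout were below every other library. Fgf17 fell by 1.82 on the log2 scale from untreated to 3 h (SE 0.223, limma adjusted p = 0.00127), and the 2 ratios of numbered libraries were 0.170 and 0.184. This call was kept in all 12 single omissions (adjusted p up to 0.0145) and without both untreated libraries numbered 2 (adjusted p = 0.0309).

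Fgf3 (ENSMUSG00000031074), which takes part in induction of the inner ear, was at 4.26 and 3.45 TPM in the untreated libraries labelled knockout, 2.18 and 1.2 TPM at 1 h, and 1.40 and 0.720 TPM at 3 h. It was at 1.45 and 2.29 TPM, 1.2 and 1.0 TPM, and 1.59 and 2.07 TPM in the libraries labelled wild type in the same order. The untreated libraries labelled knockout were the highest of all 12. Fgf3 fell by 1.25 from untreated to 3 h under the knockout label (SE 0.267, limma adjusted p = 0.0183). The call was lost without the untreated knockout-labelled library numbered 1 (adjusted p = 0.112) or 2 (0.0609), without the 3 h library numbered 2 (0.113), and without both untreated libraries numbered 2 (0.0865).

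Fgf8 (ENSMUSG00000025219), the main organizer signal of the midbrain-hindbrain boundary and of several other centres, was at 29.7 and 21.4 TPM untreated, 20.4 and 12.4 TPM at 1 h, and 12.7 and 6.86 TPM at 3 h under the knockout label. Under the wild-type label it was at 30.4 and 22.1 TPM, 18.4 and 13.2 TPM, and 25.03 and 15.1 TPM. The library numbered 1 was higher than the library numbered 2 in all 6 groups, by 1.38 to 1.85 times. At 3 h the knockout-labelled value differed from untreated by -1.34 (SE 0.378, 95% interval -2.20 to -0.48), which missed the threshold with a limma adjusted p of 0.0544. With the library number as a block in the fit the SE was 0.123 and the adjusted p 0.000235. The block raised the count of members called lower from 4 to 7 by adding Fgf8, Spry2 and Spred1, where it called 18.1% of all genes lower.

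Among the induced genes, the ETS factor Etv5 (ENSMUSG00000013089) was the least variable member within groups. It was at 29.2 and 29.3 TPM untreated, 23.0 and 21.3 TPM at 1 h, and 19.3 and 20.1 TPM at 3 h in libraries labelled knockout. In libraries labelled wild type it was at 26.7 and 25.9 TPM, 23.8 and 20.7 TPM, and 25.03 and 24.3 TPM. The 3 groups labelled knockout did not overlap, and under the wild-type label the 1 h libraries were lowest. Etv5 fell by 0.55 on the log2 scale from untreated to 3 h under the knockout label (SE 0.134, limma adjusted p = 0.0316). It missed the threshold with size factors computed from the TPM (-0.44, adjusted p = 0.159) or quantile normalization (-0.44, 0.151), and without any 1 of the 8 untreated or 3 h libraries of either label (0.0610 to 0.155). Without both untreated libraries numbered 2 its adjusted p was 0.215.

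Etv4 (ENSMUSG00000017724), the closely related ETS factor, did not pass the test. It was at 19.1 and 11.9 TPM untreated, 15.4 and 15.6 TPM at 1 h and 22.4 and 13.0 TPM at 3 h under the knockout label, and at 13.3 and 11.8 TPM, 15.5 and 18.0 TPM, and 19.5 and 11.1 TPM under the wild-type label. Its libraries spread up to 1.76 times within a group. The knockout-labelled difference at 3 h was 0.17 with a 95% interval of -0.58 to 0.93, so a change of the size seen for Etv5 (-0.55) lay inside that interval.

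None of the 4 Sprouty and Spred inhibitors passed the test from untreated to 3 h. Spry2 (ENSMUSG00000022114) was at 22.1 and 19.0 TPM untreated, 10.1 and 9.82 TPM at 1 h, and 12.7 and 12.9 TPM at 3 h under the knockout label. The 3 h difference from untreated was -0.64 (SE 0.196, limma adjusted p = 0.0726, and 0.0300 with the library number as a block). Spred1 (ENSMUSG00000027351) was at 27.8 and 42.1 TPM untreated, 21.3 and 30.5 TPM at 1 h and 17.2 and 25.6 TPM at 3 h, a 3 h difference of -0.68 (SE 0.326, adjusted p = 0.242, and 0.00397 with the block). Both 3 h libraries lay below both untreated libraries for each of these genes.

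Spry1 and Spry4 stood at or above their untreated level at 3 h. Spry1 (ENSMUSG00000037211) was at 12.8 and 16.7 TPM untreated, 6.59 and 11.7 TPM at 1 h, and 13.5 and 18.9 TPM at 3 h under the knockout label, with a 3 h difference of 0.12 (95% interval -0.62 to 0.86, limma adjusted p = 0.901). Spry4 (ENSMUSG00000024427) was at 3.08 and 3.86 TPM untreated, 2.20 and 1.86 TPM at 1 h, and 3.90 and 4.22 TPM at 3 h, with a 3 h difference of 0.18 (95% interval -0.22 to 0.59, adjusted p = 0.611). For Spry4 both 3 h libraries lay above both untreated ones, and for Spry1 the groups overlapped. Without overlap, 7 members were lower and 1 was higher at 3 h, where 31.6% of all genes were lower and 19% higher in that way.

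**Figure D2:**
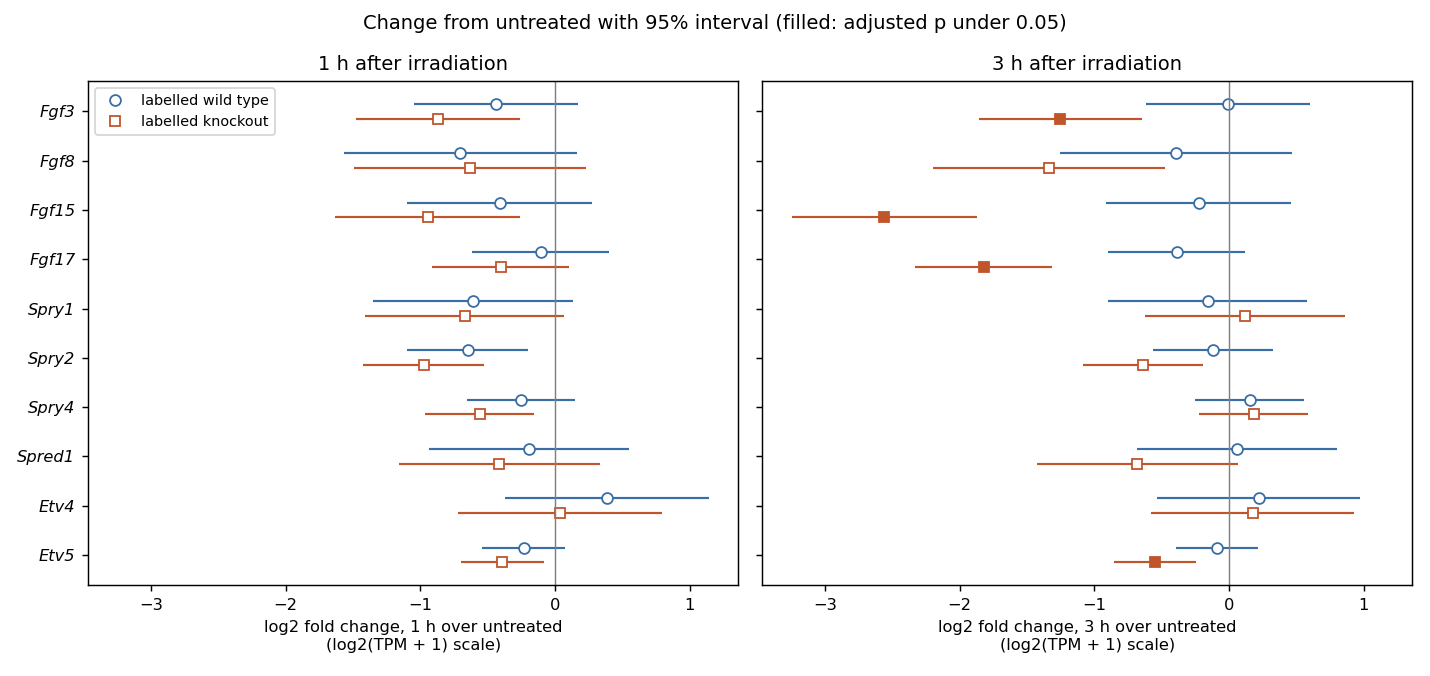
Log2 fold change of each gene from untreated to 1 h (left) and to 3 h (right) on the log2(TPM + 1) scale, with 95% intervals from limma; circles are libraries labelled wild type, squares libraries labelled knockout, and filled symbols passed an adjusted p under 0.05. Fgf15 at -2.56 and Fgf17 at -1.82 lie furthest from 0 at 3 h under the knockout label, and no gene passed at 1 h.

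At 1 h no member passed the test in either label. In the libraries labelled knockout 0 of 10 members were called by limma, with or without the library number as a block, and 0.103% of all genes were called, or 0.914% with the block. At an unadjusted p under 0.05 there were 5 members, Spry2, Fgf3, Spry4, Fgf15 and Etv5, against 9.06% of all genes. Both 1 h libraries lay below both untreated ones for 8 of the 10 members, against 20.3% of all genes, and the exceptions were Spred1 and Etv4. The median member differed by -0.60 and the median gene by -0.06.

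Spry2 had the largest of these differences, -0.97 (SE 0.196, limma adjusted p = 0.171), with TPM ratios of 0.456 and 0.516 in the 2 numbered pairs. The block gave it an adjusted p of 0.0537. Spry1 differed by -0.67 (95% interval -1.41 to 0.07) and Spry4 by -0.56 (95% interval -0.96 to -0.15). Without both 1 h libraries numbered 2 the Spry1 difference was -1.04 and the Spry2 difference -0.96, again without a call. The 2 libraries of each 1 h group correlated across genes at 0.938 and 0.935, while those of the other 4 groups correlated at 0.969 to 0.974. Such a value cannot tell which of the 2 libraries departs, and omission of both 1 h libraries numbered 1 was not run.

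In the libraries labelled wild type the 1 h values of Spry1, Spry2 and Spry4 also lay below both untreated values. Spry2 was at 16.3 and 20.8 TPM untreated, 9.73 and 13.3 TPM at 1 h, and 18.4 and 15.5 TPM at 3 h. Spry1 was at 13.2 and 17.8 TPM, 7.59 and 12.4 TPM, and 12.3 and 15.02 TPM, and Spry4 at 3.06 and 3.49 TPM, 2.39 and 2.79 TPM, and 3.50 and 4.01 TPM. For Spry2 and Spry4 the 1 h libraries lay below all untreated and 3 h libraries of that label. Spred1 was at 28.7 and 42.3 TPM, 28.3 and 32.6 TPM, and 29.4 and 44.9 TPM, and its groups overlapped.

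From untreated to 1 h under the wild-type label 0 of 10 members were called by limma, with or without the block, and 0% of all genes were called. Spry2 was the 1 member with an unadjusted p under 0.05 (-0.65, SE 0.196, adjusted p = 1), against 3.98% of all genes. Without overlap 7 members were lower and Etv4 was higher, against 16% and 10.6% of all genes. From untreated to 3 h 0 members were called, with or without the block, against 0% of all genes by limma and 0.154% with it. At an unadjusted p under 0.05 there were 0 members, against 3.37% of all genes. At that time 7 of the 10 members overlapped with untreated, Fgf17 and Etv5 were lower without overlap and Spry4 was higher, against 13.1% and 17.3% of all genes. From 1 h to 3 h 0 members and 0% of all genes were called by limma. Spry2 (0.53) and Spry4 (0.41) had an unadjusted p under 0.05, against 5.97% of all genes.

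Posterior Hox genes, which mark the trunk and tail and rise with embryonic stage, moved with these time groups. Their mean level over 11 genes on the log2(TPM + 1) scale was 0.87 and 1.21 in the untreated libraries labelled knockout, 2.65 and 3.33 at 1 h, and 1.47 and 1.57 at 3 h. Under the wild-type label it was 2.32 and 2.15 untreated, 2.99 and 3.23 at 1 h, and 2.13 and 2.43 at 3 h. The 1 h libraries were thus the highest in both labels. Of the 11 genes 4, Hoxc8, Hoxb9, Hoxa9 and Hoxb8, were called higher at 1 h under the knockout label, against 0.103% of all genes in either direction. Hoxc8 and Hoxb9 kept their calls in 8 of 12 single omissions, Hoxa9 in 2 and Hoxb8 in 0, and without both untreated libraries numbered 2 none of these 4 was called (limma adjusted p 0.0620 to 0.401). Between labels in untreated embryos, 2 of the 11 genes were called lower under the knockout label (median -1.22), or 1 with the library number as a block. That stands against 0.0193% of all genes called by limma in either direction. Between labels at 3 h, 3 of the 11 were called lower under the knockout label, against 5.07% of all genes. From 1 h to 3 h under the knockout label 5 were called lower (median -1.52), against 4.31% of all genes. From untreated to 3 h under that label 1 was called higher and 1 lower, against 12.1% of all genes in either direction. The part of stage in the members' values, at 1 h, at 3 h or between labels, was not tested.

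Between 1 h and 3 h in the libraries labelled knockout, 3 of the 10 members were called, Fgf15 and Fgf17 lower and Spry4 higher, against 11.2% of all genes, 4.31% lower and 6.89% higher. Fgf17 fell by 1.418 (SE 0.223, limma adjusted p = 0.00489) and kept its call in all 12 single omissions. Fgf15 fell by 1.62 (SE 0.301, adjusted p = 0.0108), and lost its call without the 1 h library numbered 2 (adjusted p = 0.0613), without the 3 h library numbered 1 (0.0658) or without both 1 h libraries numbered 2 (0.0807). Spry4 rose by 0.74 (SE 0.177, adjusted p = 0.0304), to 1.77 and 2.27 times the 1 h TPM in the 2 numbered pairs. The Spry4 call was lost without any 1 of the 8 libraries other than the untreated knockout-labelled and 1 h wild-type-labelled ones (adjusted p 0.0525 to 0.150). Spry1 differed by 0.79 (SE 0.325, adjusted p = 0.172), with ratios of 2.05 and 1.62. With the library number as a block 5 members were called, Fgf8 lower (adjusted p = 0.00487) and Spry1 higher (0.00466) in addition, where the block called 29.1% of all genes.

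In untreated embryos no member was called between the 2 labels: 0 of 10 by limma, with or without the block, against 0.0193% of all genes, and 0.0129% with the block. Fgf3, 0.77 higher under the knockout label (limma adjusted p = 1), was the 1 member with an unadjusted p under 0.05, against 1.2% of all genes. At 1 h 0 members were called between labels, with or without the block, against 0.0386% of all genes by limma and 0.0772% with it. At an unadjusted p under 0.05 there were 0 members, against 1.35% of all genes.

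At 3 h, 2 members were lower in the libraries labelled knockout than in those labelled wild type, against 10.3% of all genes called in either direction and 5.07% called lower. Fgf15 was 2.15 lower on the log2 scale (difference -2.15, SE 0.301, limma adjusted p = 0.00286), and this was called in all 12 single omissions. Fgf17 differed by -1.15 (SE 0.223, adjusted p = 0.0137), a call lost without any 1 of the 3 h libraries of either label (0.0599 to 0.0965). Both 3 h libraries labelled knockout lay below both labelled wild type for 7 of the 10 members, against 36.2% of all genes. With the block 5 members were called lower, Fgf8, Spred1 and Etv5 in addition, where it called 18.5% of all genes lower.

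The difference between the 2 labels in the response from untreated to 3 h was tested as an interaction. It passed for 2 members, both more negative under the knockout label, against 3.45% of all genes in either direction and 0.856% in that direction. For Fgf15 it was -2.33 (SE 0.426, limma adjusted p = 0.0222), from responses of -2.56 and -0.23. For Fgf17 it was -1.43 (SE 0.316, adjusted p = 0.0481), from responses of -1.82 and -0.39. Both calls were lost on omission of single libraries: the Fgf15 difference in 6 of 12 omissions (adjusted p up to 0.0894) and the Fgf17 difference in 10 of 12 (up to 0.178). With the block 4 members were called, Fgf8 and Spred1 in addition, where it called 13.4% of all genes. For Spry1 the difference of responses was 0.28 (95% interval -0.77 to 1.33) and for Spry4 0.03 (95% interval -0.54 to 0.60). The same test at 1 h called 0 members, with or without the block, against 0.00644% of all genes by limma and 0.0515% with it. At an unadjusted p under 0.05 there were 0 members, against 1.21% of all genes.

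The mean standardized profiles of the 4 ligands and of the 6 induced members were lowest in different libraries. The ligands' mean was -1.41 and -1.73 in the 3 h libraries labelled knockout, the 2 lowest of the 12, and 1.198 and 0.99 in the untreated libraries with that label, the 2 highest. The induced members' mean was lowest in the 1 h library numbered 1 labelled knockout, at -1.01, and was -0.18 and -0.06 at 3 h. These are descriptions over libraries that share groups and numbers.

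**Figure D3:**
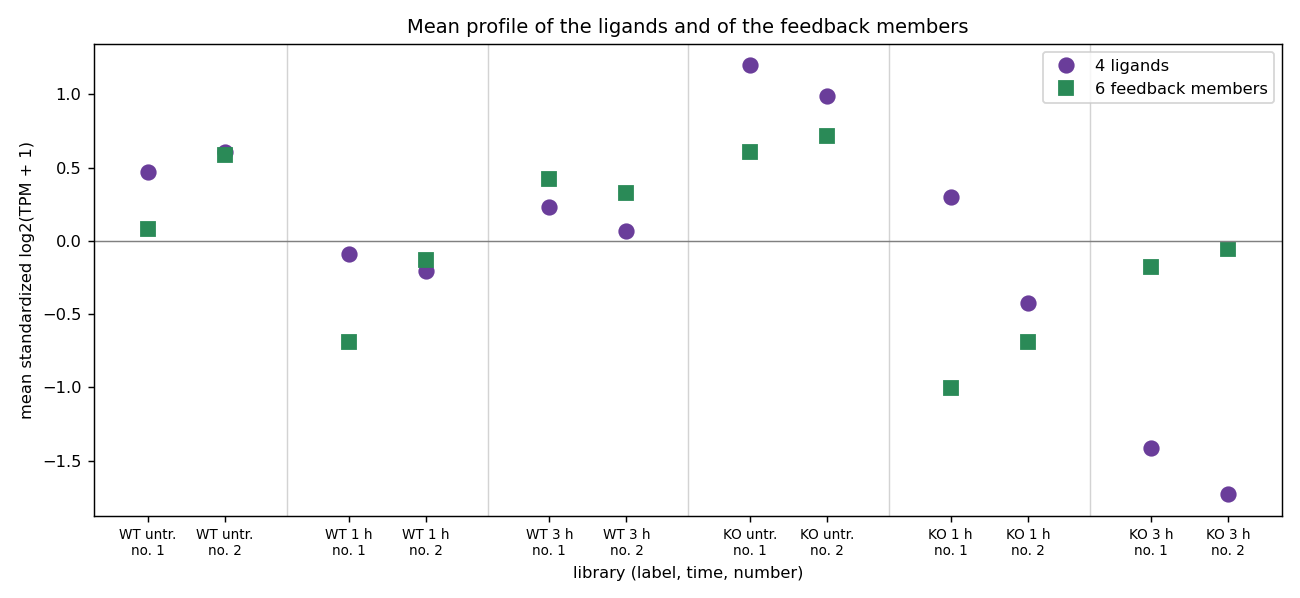
Mean over the 4 ligands (circles) and over the 6 induced members (squares) of log2(TPM + 1) standardized per gene over the 12 libraries, shown for each library. The ligands' points lie lowest at 3 h under the knockout label (-1.41 and -1.73), and the lowest point of the induced members is the 1 h knockout-labelled library numbered 1 (-1.01).

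Members were alike to different degrees over the 12 libraries, which share 6 groups. By Pearson correlation of log2(TPM + 1), Fgf15 and Fgf17 were each other's nearest member (0.878), as were Fgf8 and Etv5 (0.831) and Spry1 and Spry4 (0.763). Fgf3 and Spry2 were nearest to Etv5 (0.812 and 0.707) and Spred1 to Fgf15 (0.796). Etv4 had no near member, its highest correlation being 0.0339 with Fgf8. By Spearman rank correlation Fgf15 and Fgf17 were not each other's nearest member. Their value was 0.545, against 0.867 for Fgf15 with Etv5 and 0.720 for Fgf17 with Etv5. The rank values were 0.853 for Fgf8 with Etv5 and 0.818 for Spry1 with Spry4. Fgf15, Spry1 and Spred1 were higher in the library numbered 2 in all 6 groups, while Fgf8 was higher in the library numbered 1, so the library number enters these values.

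Among all other tested genes with a mean of at least 2 on that scale, those most like the ligands' mean profile were Hk2 (correlation 0.967), Six3 (0.966), Wnt1 (0.958), Crabp1 (0.953) and Nol10 (0.952). Wnt1, which is made beside Fgf8 at the midbrain-hindbrain boundary, was at 14.03 and 11.6 TPM untreated and 1.31 and 1.76 TPM at 3 h under the knockout label. Six3, a forebrain transcription factor, was at 10.3 and 10.8 TPM untreated and 1.56 and 1.03 TPM at 3 h. Hk2, the glycolytic enzyme hexokinase 2, went from 70.6 and 51.7 TPM to 9.61 and 12.3 TPM. Those most like the mean profile of the induced members were Mycn (0.942), Has2 (0.939), Dab1 (0.925), Dag1 (0.923) and Fezf1 (0.912). Mycn, which encodes the N-Myc transcription factor, was at 80.4 and 90.6 TPM untreated, 32.2 and 39.3 TPM at 1 h, and 37.5 and 50.3 TPM at 3 h under the knockout label.

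Other genes of the pathway were followed in fixed lists, given as counts called from untreated to 3 h in the libraries labelled knockout and beside the median gene at -0.12. Of all genes, 12.1% were called in either direction in that comparison and 5.87% lower, which also holds for the lists further below. Of 8 FGF receptors and co-receptors tested, 3 were called lower and 0 higher (median -0.71). Flrt3, a membrane protein that binds FGF receptors, was at 37.2 and 37.5 TPM untreated, 13.5 and 18.2 TPM at 1 h and 13.8 and 16.3 TPM at 3 h (-1.26, SE 0.193, limma adjusted p = 0.00390), and kept its call in all 12 single omissions but not without both untreated libraries numbered 2 (0.0516). Fgfr3, a receptor of the neural tube, was at 15.6 and 27.8 TPM untreated and 5.88 and 8.70 TPM at 3 h (-1.423, SE 0.300, adjusted p = 0.0175), a call lost without the untreated library numbered 2 (0.0990) or the 3 h library numbered 1 (0.126). Fgfrl1, a receptor without a kinase domain, went from 18.9 and 29.4 TPM to 9.27 and 13.2 TPM (adjusted p = 0.0468), and kept its call in 3 of 12 omissions (adjusted p up to 0.262). The main receptor Fgfr1, named after its values were seen, was at 61.2 and 64.3 TPM untreated and 60.2 and 68.1 TPM at 3 h.

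Of 8 other Fgf genes tested of 18 listed, 1 was called higher and 1 lower (median -0.42). The list was not limited to secreted ligands, and its tested genes include Fgf12, Fgf13 and Fgf14. The median is therefore not one of ligands alone. Fgf18 went from 3.70 and 5.06 TPM to 11.0 and 7.03 TPM (adjusted p = 0.0442, limma), called in 3 of 12 omissions (adjusted p up to 0.264). Fgf9 went from 1.8 and 1.55 TPM to 0.510 and 0.550 TPM (adjusted p = 0.0181), called in 8 of 12 (up to 0.111). Fgf18 thus moved against the ligands Fgf15 and Fgf17.

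The other feedback genes and targets gave 1 called higher and 2 lower of 10 tested (median -0.25). Etv1, the third ETS factor of the Etv4 and Etv5 subfamily, was at 10.1 and 8.68 TPM untreated and 3.25 and 3.20 TPM at 3 h (-1.29, SE 0.231, limma adjusted p = 0.00801). Spred3, a Spred inhibitor, went from 5.66 and 5.47 TPM to 2.05 and 2.02 TPM (-1.11, SE 0.180, adjusted p = 0.00499, called in all 12 single omissions). The Etv1 call was kept in 9 of 12 omissions (adjusted p up to 0.0603). Without both untreated libraries numbered 2 neither was called (adjusted p 0.0700 for Etv1 and 0.0594 for Spred3). Rasl11b, a small GTPase, was higher, from 17.6 and 16.2 TPM to 26.1 and 29.0 TPM (adjusted p = 0.0345, called in 4 of 12 omissions, up to 0.169).

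Dusp6, the phosphatase that inactivates ERK and a common readout of FGF activity, was lowest at 1 h, as Spry1 and Spry4 were. Under the knockout label it was at 35.0 and 62.2 TPM untreated, 18.9 and 26.6 TPM at 1 h and 68.3 and 95.2 TPM at 3 h. From 1 h to 3 h it rose by 1.8 (SE 0.343, limma adjusted p = 0.0119). The 1 h difference from untreated was -1.03 (SE 0.343, limma adjusted p = 0.395), and the block gave an adjusted p of 0.0110. The 3 h difference from untreated, given after its values were seen, was 0.77 (limma adjusted p = 0.202, blocked 0.00203). Under the wild-type label Dusp6 was at 46.8 and 62.5 TPM, 24.9 and 37.0 TPM, and 45.1 and 61.8 TPM, so the 1 h libraries were lowest there too.

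The RAS-ERK relay itself gave 1 called higher, Hras, and 1 lower, Sos1, of 18 tested (median -0.28). With the library number as a block there were 1 higher and 7 lower, where the block called 18.1% of all genes lower. Hras went from 59.8 and 57.6 TPM to 95.6 and 86.4 TPM (adjusted p = 0.0268, limma; kept in 6 of 12 omissions, up to 0.157). Sos1, the exchange factor that loads RAS, went from 16.4 and 19.7 TPM to 8.68 and 10.9 TPM (adjusted p = 0.0303; kept in 4 of 12, up to 0.188). Of 11 heparan sulfate enzymes 1 was called, Sulf2, from 120.4 and 125.6 TPM to 183 and 187 TPM (adjusted p = 0.0188; kept in 8 of 12, up to 0.111).

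Immediate early genes, which ERK and stress kinases both induce, gave 8 called higher and 1 lower, Myc, of 13 (median 0.86). Of all genes 12.1% were called in either direction. Myc was named after its values were seen. Egr1 was at 2.14 and 2.28 TPM untreated, 2.37 and 1.89 TPM at 1 h and 49.7 and 36.6 TPM at 3 h under the knockout label (3.77, SE 0.258, limma adjusted p = 6.35e-05). Fos went from 1.10 and 1.79 TPM to 18.6 and 16.6 TPM. Atf3 went from 6.87 and 9.67 TPM to 31.4 and 30.5 TPM. At 3 h under the wild-type label Egr1 was at 2.05 and 1.96 TPM and Fos at 0.970 and 0.920 TPM. All 3 calls under the knockout label were kept in every single omission.

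**Figure D4:**
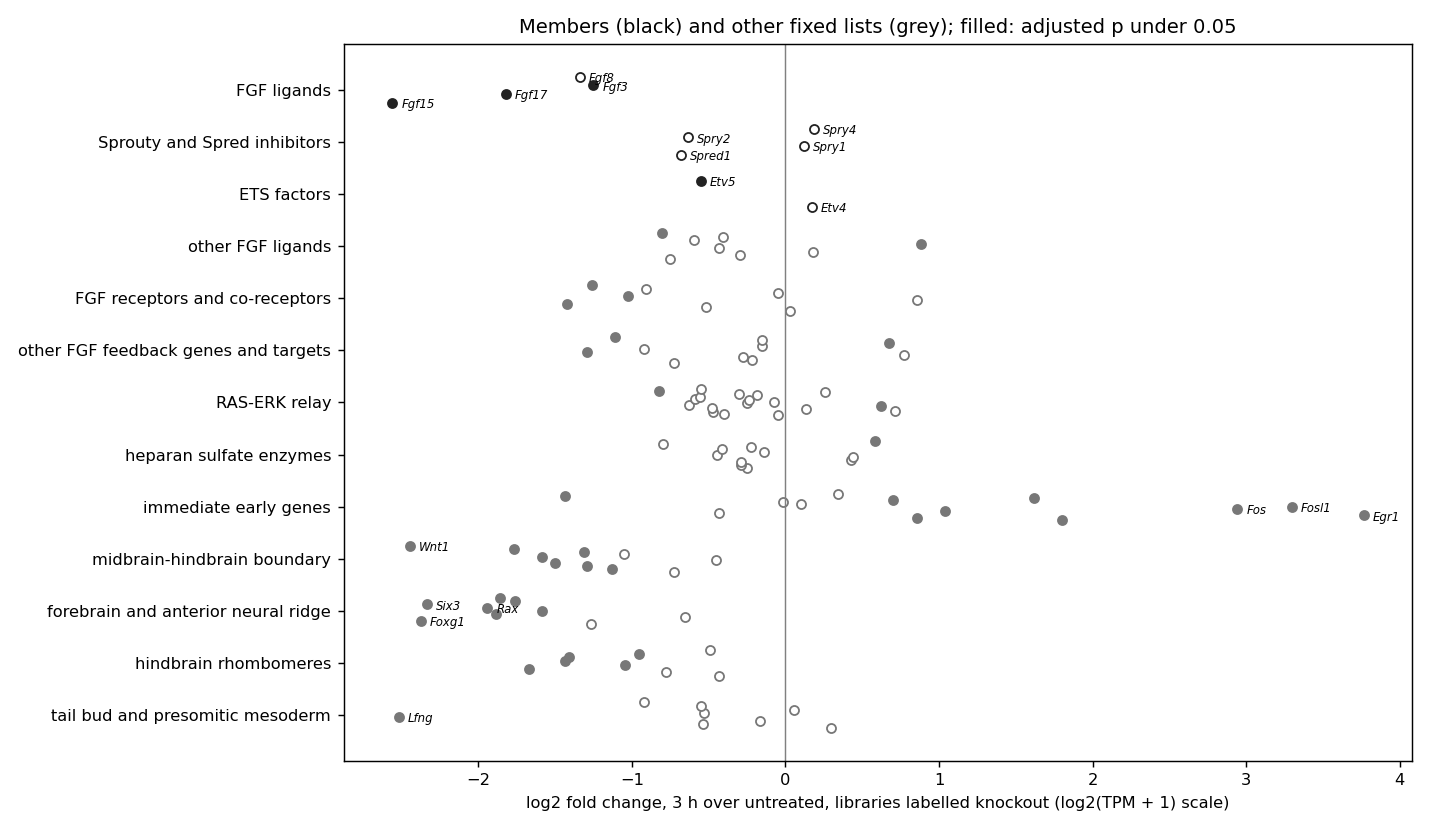
Log2 fold change from untreated to 3 h in the libraries labelled knockout (horizontal axis, log2(TPM + 1) scale) for the members, in black, and for genes of other lists, in grey; each point is a gene and filled points passed an adjusted p under 0.05 in limma. The ligands Fgf15 (-2.56) and Fgf17 (-1.82) lie among genes of the midbrain-hindbrain boundary and forebrain, and immediate early genes such as Egr1 (3.77) lie at the other end.

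Markers of the regions that make these ligands moved with them at 3 h under the knockout label. Of 10 midbrain-hindbrain genes 7 were called lower and 0 higher (median -1.30), and their summed level went from 127 and 126 TPM to 39.3 and 43.9 TPM. Wnt1 fell by 2.44 (limma adjusted p = 0.000339) and Otx2 by 1.59 (limma adjusted p = 0.000291). Otx2, which sets the midbrain side of the boundary, was already called at 1 h, from 47.6 and 53.5 TPM to 19.9 and 22.4 TPM (adjusted p = 0.0286), a call kept in 2 of 12 omissions (adjusted p up to 0.241) and lost without both untreated libraries numbered 2 (0.545). Of 9 forebrain genes 7 were called lower (median -1.86; summed level 134 and 141 TPM to 36.9 and 33.4 TPM), and of 8 hindbrain genes 5 (median -1.0; 122.6 and 109 TPM to 47.5 and 49.8 TPM).

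Lists for other signalling centres also held called genes, nearly all lower. Of 7 pharyngeal genes 5 were called lower and of 9 placode and otic genes 8, with 0 higher in either. Of 8 tail bud genes 1 was called (median -0.53), near the 12.1% of all genes called in either direction. It was Lfng, an enzyme that modifies Notch, which went from 46.9 and 56.1 TPM to 5.58 and 11.7 TPM. Of 6 limb ridge genes 3 were called lower and 1, Sp6, higher. At 3 h under the wild-type label 0 genes of these lists were called by limma. Whether cells of these regions were lost, or made less of each transcript, cannot be told apart in whole embryos.

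Markers of other tissues were followed in 4 further lists. The summed level of 8 primitive erythroid genes was 1948 and 5047 TPM in the untreated libraries labelled knockout and 13418 and 11136 TPM at 3 h. Of the 8, 5 were called higher, against 12.1% of all genes called in either direction. Under the wild-type label the sum was 6037 and 5845 TPM untreated and 4545 and 6572 TPM at 3 h. Between labels at 3 h, 0 of the 8 were called by limma, against 10.3% of all genes in either direction. With the block 2 were higher, where it called 4371 of 15535 genes in either direction. The summed level of 10 visceral endoderm genes was 28.1 and 166 TPM untreated and 193 and 503 TPM at 3 h under the knockout label. Of these genes 0 were called by limma and 3 were higher with the block, which called 4534 of 15535 genes in either direction. Of 5 decidua markers 2 were at 0 in all libraries and the summed level was at most 9.12 TPM. Trophoblast genes summed to 60.3 and 17.5 TPM untreated and 25.8 and 32.0 TPM at 3 h, with 1 of 3 tested called, Ascl2, higher. The part of tissue composition in the members' values was not tested.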

How the data were processed

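RNA was measured in 12 libraries of whole embryos, 2 in each of 6 groups, from about 500 ng of RNA by polyA selection and paired reads of 75 bp, per the labels' protocols. The values are TPM that the authors deposited, 1 table for the whole series; the submitters' processing notes name RSEM 1.3.3, STAR 2.7.3a, R 4.3.3, DESeq2 1.42.1 and HTSeq 0.12.3 with no role, beside the build GRCm39. Neither the annotation release nor the strand setting is in the sources used here. TPM keep no depth, so counting error is unknown. Symbols came from a GRCm38-based gene table and matched 52093 of 53647 gene identifiers (97.1%).

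Genes with at least 1 TPM in at least 2 libraries (15535) were fitted with limma 3.58.1 in R 4.3.3 on log2(TPM + 1), with 6 group means, a trend of the spread and 6 residual degrees of freedom. Tests were two-sided, Benjamini-Hochberg adjusted over all 15535 genes in each of 11 comparisons, and called under 0.05; comparisons that share a group share its libraries. Intervals are 95%. On simulated data for the knockout-labelled 3 h comparison 24 of 100 genes with a 2-fold change and 98 of 100 with a 4-fold change were recovered, and 3 of the 15535 genes were called falsely. Only these genes were changed, all with a mean over 2 on the log2 scale, and no library-number effect was simulated. In the real comparison 12.1% of genes were called, so its recovery can differ. Libraries with the same number in the labels deviated together from their group means in all 15 pairs of groups (correlation across genes 0.327 to 0.796), so the fit with the number as a block is given where it changes a call. Sequence and figure work used Python 3.11.15 and matplotlib 3.10.9.

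All 10 members were named. From each other list up to 4 called genes with the smallest p were eligible, or up to 2 where none was called, and the 5 genes most like each mean profile. Members and lists were chosen with earlier results of these data known. Alternatives were another pseudocount, other filters, size factors, quantile normalization, no trend, the block, only the groups compared, and omission of libraries; those without all 1 h libraries or without both untreated libraries numbered 2 were chosen after seeing the data.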

Additional observations from a re-analysis of the deposited data

Results flagged for a closer look

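The response of Fgf15 from untreated to 3 h differed between the labels by -2.33 on the log2 scale (knockout label minus wild-type label, limma adjusted p = 0.0222), by a test of the difference itself. That of Fgf17 differed by -1.43 (limma adjusted p = 0.0481), by the same test. Both knockout-labelled 3 h libraries were below both untreated ones for each gene. The Fgf15 difference was called in 6 of 12 single omissions. It was lost without the untreated wild-type-labelled library numbered 1 (0.0797), either 3 h library labelled wild type (0.0875 and 0.0894), either untreated library labelled knockout (0.0688 and 0.0826) or the 3 h knockout-labelled library numbered 1 (0.0570). The Fgf17 difference was called in 2 of 12, those without a 1 h library labelled knockout, and its adjusted p reached 0.178 without the untreated wild-type-labelled library numbered 2. Without both untreated libraries numbered 2 neither was called (adjusted p 0.116 for Fgf15 and 0.403 for Fgf17).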

How the results depend on the processing

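Of 110 member values, 11 passed the threshold, and none of these changed sign under any alternative; 81 of 2448 alternative values changed sign, all of values under 0.307 in size. From untreated to 3 h under the knockout label 4 members were called, 7 with the replicate block, 2 with only the groups compared, 2 without both untreated libraries numbered 2, and 2 to 4 without single libraries. From 1 h to 3 h under that label 3 were called, 5 with the block, 0 with only the groups compared, 1 without both 1 h libraries numbered 2, and 1 to 3 without single libraries. Between labels at 3 h 2 were called, 5 with the block, 1 with only the groups compared, and 1 to 2 without single libraries. For the difference of responses at 3 h 2 were called, 4 with the block, and 1 each with no filter, the TPM 5 filter, quantile normalization, size factors, only the groups compared, without both 1 h libraries numbered 2 or without all 1 h libraries. That count was 0 without both untreated libraries numbered 2 and 0 to 2 without single libraries. The block changed no other call of a member. Where the median gene moved by over 0.1, it was -0.12 (3 h against untreated, knockout label), -0.16 (between labels at 3 h) and -0.15 (difference of responses), and with size factors -0.02, -0.01 and -0.03. Genes called from untreated to 3 h under the knockout label numbered 1883, 4534 with the block, 466 with only the groups compared, 643 without both untreated libraries numbered 2, and 820 to 1935 without single libraries. The cause of these shifts was not tested. With 2 libraries a group, 2-fold changes were mostly missed in the simulation (24 of 100 recovered), which changed few genes and held no library-number effect. TPM give no depth.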
